A study of Homo sapiens with 8 samples.

Results

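The genes considered here were 10 transcriptional targets of WNT and beta-catenin signalling, AXIN2, LGR5, NKD1, TBX3, GLUL, RNF43, ZNRF3, DKK1, SP5 and NOTUM. They were chosen by symbol, and each was found among the 63241 Ensembl gene identifiers listed in every library. All 10 were among the 15173 genes tested, which had an FPKM (fragments scaled for transcript length and library total) of at least 1 in at least 2 libraries. mRNA was sequenced in 8 libraries of HepG2 and Huh7, established human liver cancer cell lines, with 2 libraries in each of the 4 groups. The parental, sorafenib-sensitive cells (genotype WT, treatment control) were named HepG2 WT and Huh7 WT. The resistant cells (genotype SR, treatment sorafenib), raised from each line under stepwise increasing concentrations of this multikinase inhibitor, were named HepG2 SR and Huh7 SR. The sources used here do not say whether a resistant line is a clone, no label says that the libraries came from separate cultures, and p-values therefore measure only the spread between these libraries. The comparison of SR with WT cells asks what accompanies acquired resistance. Resistance and the treatment label go together in these groups, so they cannot be told apart. The comparison of the lines bears on CTNNB1, which carries a known activating change in HepG2.

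In the canonical WNT pathway, a destruction complex built on AXIN and APC marks beta-catenin for degradation, and WNT binding to Frizzled and LRP receptors halts that process. Stabilized beta-catenin then enters the nucleus and acts with TCF/LEF factors on target genes. Many targets encode inhibitors of the pathway itself, so their transcripts are widely used as a readout of its activity. In the liver the pathway is strongest around the central vein, where it maintains glutamine synthesis, and CTNNB1 is among the genes most often mutated in hepatocellular carcinoma.

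TCF/LEF factors bind a motif whose core reads CTTTGA, or TCAAAG on the opposite strand. Promoter windows of 250 bases before the transcript start were at hand for 4 of the 10 genes (RefSeq, GRCh38.p14), and the core was searched on both strands. The SP5 window (chr2:170715087-170715336, plus strand) held 3 matches and the DKK1 window (chr10:52314031-52314280, plus strand) held 2. They are shown because SP5 and DKK1 were among the genes with the widest range between libraries, and capitals mark the core on either strand.
SP5: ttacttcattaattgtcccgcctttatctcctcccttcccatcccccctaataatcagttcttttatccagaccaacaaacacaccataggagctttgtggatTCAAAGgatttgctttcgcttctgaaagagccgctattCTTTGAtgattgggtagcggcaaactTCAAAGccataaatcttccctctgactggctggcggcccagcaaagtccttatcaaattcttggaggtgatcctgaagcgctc
DKK1: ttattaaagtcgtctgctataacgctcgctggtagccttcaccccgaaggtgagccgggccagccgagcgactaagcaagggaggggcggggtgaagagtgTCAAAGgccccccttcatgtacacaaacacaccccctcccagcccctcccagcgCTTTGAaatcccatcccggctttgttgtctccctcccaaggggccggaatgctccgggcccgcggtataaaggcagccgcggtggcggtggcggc
Counted back from the transcript start, the SP5 matches lay at bases 147 to 142, 109 to 104 and 83 to 78, and the DKK1 matches at 149 to 144 and 95 to 90. Of 35116 promoter windows of the same length, 11.2% held the core at least once, 0.977% at least 2 times and 0.0655% at least 3 times. GLUL and RNF43, each with 2 windows, held 0 matches, which says only that these letters are not in those windows.

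Libraries did not group by labelled cell line. With the 10 target genes left out, both HepG2 WT libraries, replicate 1 of HepG2 SR and the Huh7 WT and SR libraries of replicate 2 correlated with one another at r of 0.914 to 0.977 (Pearson, log2(FPKM + 1), across genes). Huh7 WT replicate 1 and Huh7 SR replicate 1 correlated at 0.965 with each other and at 0.733 to 0.785 with those 5 libraries. HepG2 SR replicate 2 stood alone, at 0.776 to 0.820 with the 5 and at 0.815 to 0.846 with the pair from Huh7. The labels were kept, every library is labelled as the same batch, and the methods describe the lines as authenticated. Whether a library was swapped or mislabelled was not tested, so each comparison by line or by SR status holds only for the labels as given. Of 10 hepatocyte markers, 9 or 10 reached an FPKM of 1 in each library, but albumin ranged up to 4713 FPKM. Summed FPKM of the 10 was 4670 to 9124 in HepG2, 677 to 1279 in 3 of the Huh7 libraries and 5520 in Huh7 SR replicate 2. Single hepatocyte markers did not all follow that sum. FGB had 0.386 to 4.51 FPKM in the 5 alike libraries and 128 to 380 in the other 3. HNF4A varied little, from 22.2 to 68.5 FPKM, and AFP had 1100 FPKM in HepG2 SR replicate 2 and at most 35.8 elsewhere. The cholangiocyte and progenitor markers (KRT7, KRT19, EPCAM, SPP1 and CFTR) summed to 413 to 1226 FPKM in the 5 alike libraries and to 11.1 to 18.0 in the other 3. That sum was carried by KRT19, EPCAM and SPP1. KRT7 overlapped between the sets (0.203 to 4.75 FPKM in the 5, at most 0.551 in the other 3). CFTR went the other way, at most 0.166 FPKM in the 5 and 0.389 to 1.77 in the other 3. Fibroblast markers summed to at most 8.92 FPKM and endothelial markers to at most 4.52. Of the immune markers, PTPRC and CD3E stayed at or below 0.0415 FPKM and CD79A at or below 0.624. Immune markers summed to 61.1 to 1064 FPKM through LYZ and CD68. The part of these marker differences in the results that follow was not tested, and in bulk RNA fewer cells of a type cannot be told apart from less RNA per cell.

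Among the feedback regulators inside the cell, AXIN2 (chr17:65528563-65561647, minus strand), a scaffold of the destruction complex, was highest in the HepG2 parental cells. Its FPKM was 51.8 and 52.6 in HepG2 WT, 35.5 and 1.72 in HepG2 SR, 2.32 and 18.0 in Huh7 WT, and 1.58 and 29.7 in Huh7 SR, each given as replicate 1 and then replicate 2. Both HepG2 SR libraries thus lay below both HepG2 WT libraries, although the pair of SR libraries differed far more from each other than either WT library did from its partner. NKD1 (chr16:50548330-50649249, plus strand), which binds Dishevelled and dampens the signal, was listed at 28.7 and 30.6 FPKM in HepG2 WT, 33.5 and 0.0102 in HepG2 SR, 0.325 and 9.65 in Huh7 WT, and 0.182 and 28.0 in Huh7 SR. NKD1 was close to 0 in the same 3 libraries in which AXIN2 was lowest, and the groups overlapped within each line.

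At the cell surface, LGR5 is a receptor for R-spondins, which prolong WNT signalling, and RNF43 and ZNRF3 are ubiquitin ligases that remove Frizzled receptors from the membrane. LGR5 (chr12:71439770-71586310, plus strand) had 39.6 and 49.6 FPKM in HepG2 WT, 47.9 and 1.80 in HepG2 SR, 3.58 and 4.57 in Huh7 WT, and 2.09 and 64.7 in Huh7 SR. The highest value was therefore in Huh7 SR replicate 2, while both Huh7 WT libraries were low. RNF43 (chr17:58352500-58417595, minus strand) had 32.4 and 14.6 FPKM in HepG2 WT, 20.8 and 5.36 in HepG2 SR, 6.77 and 3.74 in Huh7 WT, and 8.82 and 19.9 in Huh7 SR. Its lowest value was in Huh7 WT replicate 2, and both Huh7 SR libraries lay above both Huh7 WT libraries. Exons of RNF43 overlap those of SUPT4H1 on the same strand, which was listed at 34.3 to 50.3 FPKM, so fragments there could be split between the genes. ZNRF3 (chr22:28883592-29057487, plus strand) had 21.2 and 22.7 FPKM in HepG2 WT, 24.7 and 3.66 in HepG2 SR, 5.22 and 7.25 in Huh7 WT, and 6.09 and 21.3 in Huh7 SR. The libraries fell into the same division as for LGR5, with 4 at 21.2 FPKM or more and the other 4 at 7.25 or less.

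The secreted inhibitors covered the widest range on the log2(FPKM + 1) scale, 7.44 for NOTUM and 7.16 for DKK1. DKK1 (chr10:52314296-52318042, plus strand), which blocks LRP co-receptors, had 427 and 792 FPKM in HepG2 WT, 439 and 52.8 in HepG2 SR, 11.9 and 30.4 in Huh7 WT, and 4.53 and 353 in Huh7 SR. It was the most abundant of the 10 per unit of transcript length in each of the HepG2 libraries and in Huh7 SR replicate 2. NOTUM (chr17:81952507-81961840, minus strand), an enzyme that removes the lipid from WNT proteins, had 52.3 and 112 FPKM in HepG2 WT, 183 and 0.780 in HepG2 SR, 0.700 and 79.6 in Huh7 WT, and 0.313 and 228 in Huh7 SR. The highest NOTUM value exceeded the lowest 727-fold, against 175-fold for DKK1, and every NOTUM value below 1 FPKM came from the 3 libraries outside the alike set.

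Of the transcription factors, SP5 (chr2:170715351-170718078, plus strand) is induced directly by beta-catenin and represses other targets, and TBX3 (chr12:114670254-114684164, minus strand) takes part in liver development. SP5 had 40.6 and 47.7 FPKM in HepG2 WT, 80.8 and 1.57 in HepG2 SR, 0.376 and 14.8 in Huh7 WT, and 0.372 and 77.8 in Huh7 SR. TBX3 had 17.7 and 21.0 FPKM in HepG2 WT, 20.5 and 4.26 in HepG2 SR, 10.9 and 10.2 in Huh7 WT, and 8.39 and 26.0 in Huh7 SR. SP5 varied 217-fold from its lowest to its highest library, whereas TBX3 varied 6.10-fold. GLUL (chr1:182381704-182392206, minus strand), glutamine synthetase of the pericentral liver, had 21.6 and 42.2 FPKM in HepG2 WT, 51.9 and 44.9 in HepG2 SR, 25.7 and 16.5 in Huh7 WT, and 26.1 and 47.6 in Huh7 SR. It varied least of the 10, by 3.14-fold, and was the only member whose SR libraries lay above its WT libraries in both lines, as they did for 3.22% of all genes tested.

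**Figure D1:**
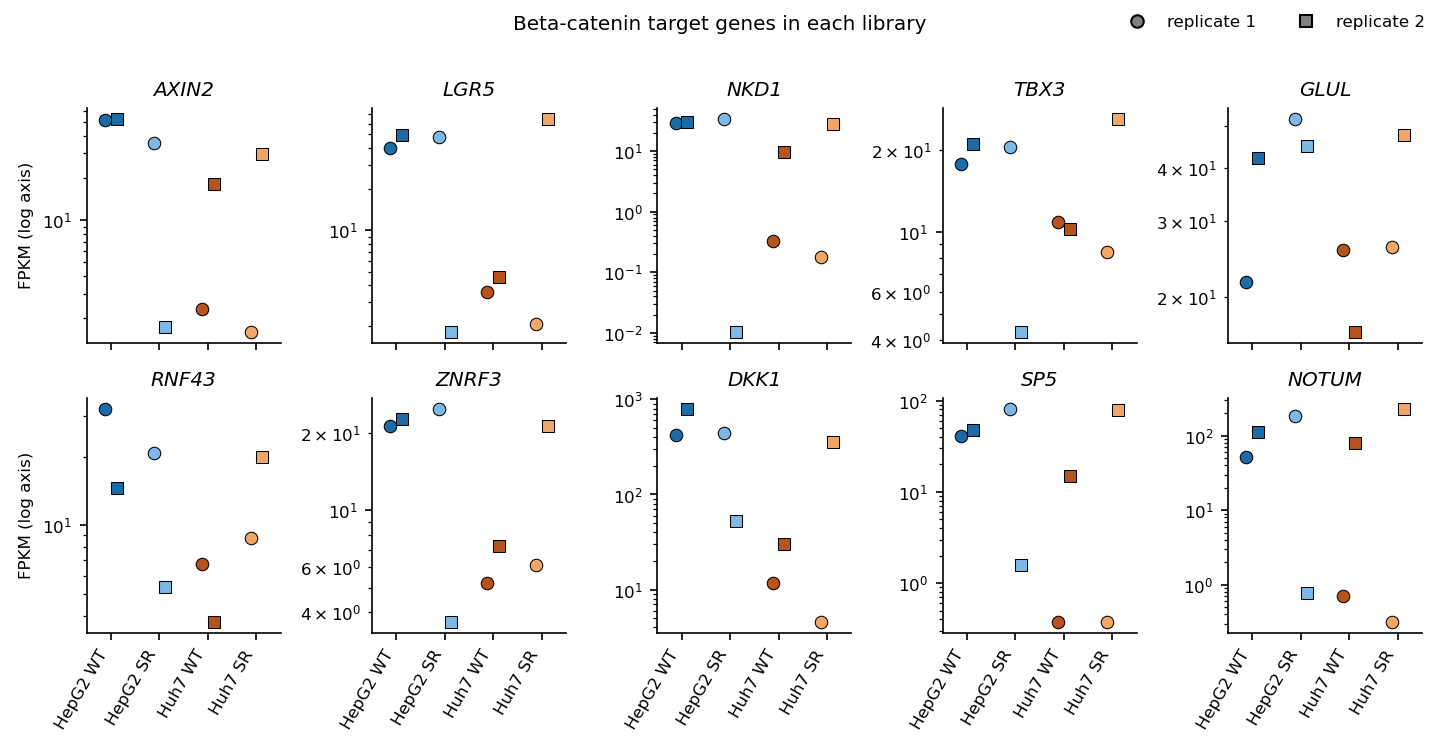
FPKM of the 10 target genes on log axes whose range differs between panels, with 1 point per library, circles for replicate 1 and squares for replicate 2, by cell line and by WT or SR status. HepG2 SR replicate 2 and both Huh7 libraries of replicate 1 sit low for most of the genes, as for NOTUM at 0.780, 0.700 and 0.313 FPKM, whereas GLUL stays between 16.5 and 51.9.

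By the median over the members, the libraries of a group disagreed on these genes more than over all genes tested, except in HepG2 WT. The range of log2(FPKM + 1) over the 8 libraries had a median of 4.46 over the members and 1.45 over all genes tested. Between the libraries of a group, the absolute log2 difference had a median over the members of 0.27 for the WT and 3.39 for the SR libraries of HepG2, and 1.0 for the WT and 3.99 for the SR libraries of Huh7. Over all genes tested the same medians were 0.29, 0.55, 0.66 and 0.64. GLUL in HepG2 SR, and LGR5, TBX3, GLUL and ZNRF3 in Huh7 WT, differed by less than the median of all genes in that group. In HepG2 SR replicate 1 was the higher for all 10 genes, and in Huh7 SR replicate 2 was the higher for all 10.

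In HepG2, 9 of the 10 genes had lower estimates and GLUL a higher estimate in SR than in WT cells, but 0 of 10 passed the test. A gene was called when limma gave an unadjusted p under 0.05 and an estimate of 0.5 or more, or below -0.5, on the log2 scale, the thresholds the study used. By that rule 2.14% of all genes tested were called (325), 0.877% higher (133) and 1.27% lower (192), and 0 had an adjusted p under 0.05. After rescaling to a common sum, the split was 88 higher and 263 lower. AXIN2, with mean FPKM of 52.2 ± 0.541 in HepG2 WT and 18.6 ± 23.9 in HepG2 SR (SD, n = 2 each), had the lowest estimate, a log2 fold change of -2.42 (SE 1.58). NOTUM had an estimate of -2.10 (SE 3.12), DKK1 of -1.92 (SE 1.89) and GLUL of 0.66 (SE 0.47). The lowest unadjusted p from limma was 0.172, for AXIN2, the adjusted p lay between 0.956 and 0.962 for the 10 genes, and their median log2 fold change was -1.78 against -0.03 for all genes tested. The median SE was 1.62 for the members and 0.48 for all genes tested.

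Those estimates rested on HepG2 SR replicate 2. Without it, log2 fold changes were 0.11 for LGR5, 0.17 for NKD1, 0.082 for TBX3, 0.16 for ZNRF3, 0.86 for SP5 and 1.25 for NOTUM, so that 6 estimates turned from lower to higher, and AXIN2 was at -0.54. With that library left out 0 of 10 genes were called and 57 genes were called in all. Without HepG2 SR replicate 1 instead, limma called 4 genes lower, AXIN2 (log2 fold change -4.29), TBX3 (-1.95), RNF43 (-1.84) and ZNRF3 (-2.30), against 6.62% of all genes lower, and 1749 genes in all, with the lone SR library assumed to vary as the others did. Without HepG2 WT replicate 1, 73 genes were called in all and 0 of the 10. By the libraries alone, without a test, AXIN2 lay lower in both SR than in both WT libraries, as did 20.1% of all genes tested, and GLUL lay higher, as did 18.1%.

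In Huh7 all 10 genes had higher estimates in SR than in WT cells, and again 0 of 10 were called, against 1.87% of all genes tested (283). Of all genes, 0.942% were called higher (143) and 0.923% lower (140), or 104 and 211 genes after rescaling to a common sum. LGR5 had the largest estimate, a log2 fold change of 1.5 (SE 1.66), followed by RNF43 with 1.24 (SE 0.73), SP5 with 1.16 (SE 2.31) and DKK1 with 1.14 (SE 1.89). RNF43 had mean FPKM of 5.26 ± 2.15 in Huh7 WT and 14.3 ± 7.82 in Huh7 SR (SD, n = 2 each). The lowest unadjusted p from limma was 0.135, for RNF43, and the adjusted p was 1.0 for each gene. The median log2 fold change of the members was 0.78, against -0.05 for all genes tested. Both Huh7 SR libraries lay above both Huh7 WT libraries for GLUL and RNF43, as they did for 9.06% of all genes tested, and no member lay wholly lower, against 12.9%. Of the marker lists, the hepatocyte genes TF and HNF4A (2 of 10) and the immune gene LYZ (1 of 5) were called higher in Huh7 SR.

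The Huh7 values also changed when single libraries were left out. Without Huh7 SR replicate 1, limma called DKK1 higher in SR (log2 fold change 4.14, 1 of 10 genes, against 2.06% of all genes higher and 568 called in all). Without Huh7 SR replicate 2, the estimates of 8 genes turned to lower in SR, among them NOTUM at -3.16, DKK1 at -1.86 and ZNRF3 at -0.014. The number of all genes called was 818 with Huh7 WT replicate 1 left out, and 158 and 154 without HepG2 WT replicate 1 or 2, with 0 of the 10 called in each case. The SR effect was then compared between the lines in the same model. The estimate was larger in Huh7 for all 10 genes, with a median of 2.62 on the log2 scale, but 0 were called, against 0.606% of all genes (0.369% larger in Huh7 and 0.237% smaller). RNF43 had the lowest p (log2 difference 2.19, SE 1.03, unadjusted p = 0.0725, adjusted p = 1.0, limma). Without HepG2 SR replicate 1, 4 members were called larger in Huh7, against 3.66% of all genes (945 called in all), and without Huh7 SR replicate 1, 2 members, against 2.07% (465 in all).

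**Figure D2:**
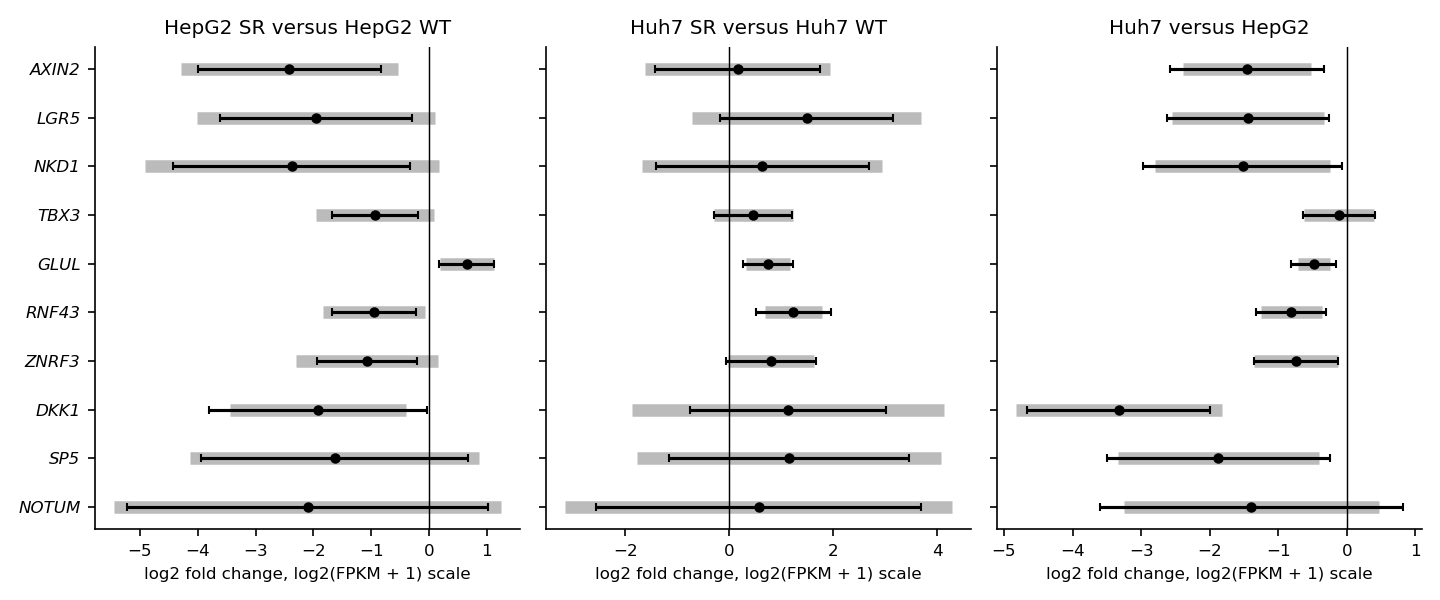
Log2 fold changes on the log2(FPKM + 1) scale in 3 comparisons, as points with bars for the standard error from limma, over grey bars that span the estimates with each of the 8 libraries left out in turn. Most grey bars for SR versus WT cross 0, those of GLUL and RNF43 cross it in neither line, and DKK1 in Huh7 versus HepG2 lies between -4.83 and -1.83.

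Differences between SR and WT libraries were then set out for libraries with alike profiles, as values of single libraries with no test. In HepG2, SR replicate 1 against WT replicate 1 gave higher values for 8 of 10 genes, and 2 differed by at least 1 on the log2 scale, NOTUM (1.79) and GLUL (1.22), against 3.96% of all genes higher by that much (3.61% lower). HepG2 WT replicate 2 is alike too, and correlated with SR replicate 1 at 0.973, against 0.958 for WT replicate 1. Against WT replicate 2, AXIN2, LGR5, TBX3 and DKK1 were lower in SR replicate 1 and the other members higher. NOTUM and GLUL differed less there, at 183 against 112 and 51.9 against 42.2 FPKM. The Huh7 libraries of replicate 1 gave higher SR values for 3 of 10 genes, and only DKK1 differed by at least 1 (-1.22), against 2.23% of all genes lower by that much (2.91% higher). The next largest difference in that Huh7 pair was -0.57, for LGR5. The Huh7 libraries of replicate 2 gave higher SR values for all 10 genes, and 9 were higher by at least 1, against 7.69% of all genes (7.94% lower by that much). LGR5 was 14.1-fold higher in FPKM there, DKK1 11.6-fold, RNF43 5.31-fold, SP5 5.25-fold and AXIN2, the member short of that mark, 1.65-fold. The median difference was 1.49 for the members and -0.11 for all genes tested. The libraries of that Huh7 pair correlated at 0.914, the lowest r within the alike set, whereas Huh7 SR replicate 2 correlated at 0.977 with HepG2 SR replicate 1. Huh7 WT replicate 2 held the lowest value of the 5 alike libraries for every member but NOTUM, as for 24.6% of all genes tested. In HepG2, SR replicate 2 against WT replicate 2, which are not alike, gave 9 genes lower by at least 1, against 16.7% of all genes (12% higher by that much). AXIN2 was 30.5-fold lower, LGR5 27.5-fold and DKK1 15.0-fold, while GLUL differed by 0.09 on the log2 scale. Both counts of 9 were the same with a pseudocount of 0.1, after rescaling to a common sum and after quantile normalization, alternatives chosen after the values were seen.

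Huh7 libraries had lower estimates than HepG2 libraries for all 10 genes, and 1 of them, DKK1, was called lower, against 4.9% of all genes tested called in either direction, 2.87% lower (435) and 2.04% higher (309). DKK1 fell by 3.33 on the log2 scale (SE 1.33, unadjusted p = 0.0422, adjusted p = 0.813, limma). The call was kept with HepG2 SR replicate 2 left out (-4.08) and with Huh7 SR replicate 2 left out (-4.83), and was lost without any one of the other libraries, the estimate then lying between -3.65, with Huh7 WT replicate 2 left out, and -1.83, with Huh7 SR replicate 1 left out. It was also lost without the filter on low values (unadjusted p = 0.0571, limma). Of the hepatocyte markers, 6 of 10 were also called lower in Huh7, albumin among them. The other 9 estimates ran from -1.87 for SP5 to -0.12 for TBX3, and the median over the members was -1.42, against 0.03 for all genes. TBX3 and NOTUM turned to higher in Huh7 with some libraries left out, up to 0.39 and 0.47. Among the 5 alike libraries alone, with line and SR status as terms, limma called 3 members lower in Huh7, against 3.63% of all genes tested (551, of 1126 called in all), DKK1 (-2.54), NKD1 (-0.98) and AXIN2 (-0.96), and NOTUM was at 0.17. Within those 5 libraries Huh7 WT replicate 2 held the lowest value for 9 of the 10 genes, as it did for 24.6% of all genes tested, and GLUL was among the 9. The exception was NOTUM, lowest in HepG2 WT replicate 1, as were 20.7% of all genes.

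The 5 alike libraries were also set against the other 3, as a description, since these sets were defined from the data and are not the groups of the study. AXIN2, LGR5, NKD1, ZNRF3, SP5 and NOTUM were higher in each of the 5 libraries than in any of the other 3, which makes 6 of 10 genes, against 16% of all genes tested, and no member was lower throughout, against 13.2%. For AXIN2 the 5 libraries ran from 18.0 to 52.6 FPKM with a median of 35.5, and the other 3 from 1.58 to 2.32. For LGR5 the gap was narrow, from 4.57 at the bottom of the 5 libraries to 3.58 at the top of the others. The ranges overlapped for TBX3, GLUL, RNF43 and DKK1. DKK1 overlapped only because Huh7 WT replicate 2 (30.4 FPKM) lay below HepG2 SR replicate 2 (52.8).

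The rest of the pathway was read from 114 listed genes, of which 71 were tested. In SR against WT, 1 of 71 was called in each line, both lower. Of all genes tested, 2.14% were called in HepG2 (1.27% lower) and 1.87% in Huh7 (0.923% lower). BCL9L, a beta-catenin co-activator, had 37.5 and 26.9 FPKM in HepG2 WT and 20.5 and 7.50 in HepG2 SR (log2 fold change -1.28, SE 0.49, unadjusted p = 0.0354, limma). TNKS2, a tankyrase that destabilizes AXIN proteins, had 21.0 and 24.5 FPKM in Huh7 WT and 9.59 and 13.6 in Huh7 SR (log2 fold change -0.93, SE 0.34, unadjusted p = 0.0289, limma). For both genes the SR libraries lay below the WT libraries, yet both calls were lost when each line was fitted alone (unadjusted p = 0.0801 and 0.0750, limma). The call of BCL9L was also lost without either HepG2 WT library, HepG2 SR replicate 2 (-0.61) or Huh7 WT replicate 1. The call of TNKS2 was also lost without either HepG2 WT library, either Huh7 WT library or Huh7 SR replicate 1 (-0.70). Called in Huh7 against HepG2 were 2 of 71 genes, both lower, and in the comparison of the SR effects 0 of 71. Over all genes tested the shares were 4.9% (2.87% lower) and 0.606%.

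CTNNB1, which encodes beta-catenin itself, was 1 of those 2. It had 147 and 135 FPKM in HepG2 WT, 126 and 183 in HepG2 SR, 139 and 82.2 in Huh7 WT, and 81.9 and 81.0 in Huh7 SR. It was lower in Huh7 by limma (log2 fold change -0.64, SE 0.26, unadjusted p = 0.0446, adjusted p = 0.813), and the call was lost after quantile normalization (-0.51), without the trend in the spread, and without any one library other than HepG2 SR replicate 1 or Huh7 WT replicate 1 (-0.67 to -0.46). Of the 3 libraries in which most of the targets were low, HepG2 SR replicate 2 held the highest CTNNB1 value, Huh7 WT replicate 1 was close to the HepG2 WT libraries, and Huh7 SR replicate 1 was among the lowest. TLE4, a co-repressor bound by TCF factors, was the other, with 0.174 and 0.0563 FPKM in the Huh7 libraries of replicate 1 and 1.42 to 3.595 elsewhere (log2 fold change -1.06, SE 0.42, unadjusted p = 0.0404, limma). Among the 5 alike libraries its estimate was -0.30 and it was not called. The call was also lost with a pseudocount of 0.1 and without either HepG2 WT library, HepG2 SR replicate 2 or either Huh7 library of replicate 1.

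Levels of further pathway genes follow, of which LRP5, LRP6, LGR4, APC, AXIN1, the TCF/LEF factors, MYC and CCND1 were always to be named and the rest were picked after their values were seen. LRP5 ranged from 28.3 to 82.9 FPKM and was lowest in both Huh7 libraries of replicate 1, and LRP6 ranged from 2.10 to 6.56 and was highest there. LGR4, a further R-spondin receptor, was also highest in that pair, at 77.3 and 53.9 FPKM, and lowest in Huh7 WT replicate 2 at 7.45. R-spondins themselves did not exceed 0.0400 FPKM in any library. WNT11, the ligand with the highest level, had 3.43 to 20.2 FPKM in the 5 alike libraries and at most 0.797 in the other 3. WLS, which carries WNT proteins to the cell surface, had 25.1 FPKM in HepG2 SR replicate 2 and at most 0.0834 elsewhere, and WNT5A had 4.63 FPKM in that library and at most 0.0622 elsewhere. WLS and WNT5A thus set HepG2 SR replicate 2 apart, and LGR4 and LRP6 the Huh7 pair.

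In the destruction complex, APC ranged from 2.19 to 4.81 FPKM, and AXIN1 from 13.2 to 19.1 in the 5 alike libraries and from 4.01 to 10.01 in the other 3. AMER1, which recruits APC to the membrane, was listed at 0 in HepG2 SR replicate 2 and at 1.46 to 2.92 FPKM elsewhere. TCF7 and LEF1 ran in opposite order. TCF7 had 11.3 to 13.9 FPKM in the 5 alike libraries and 2.17 to 3.69 in the other 3, whereas LEF1 had 17.1 and 15.0 FPKM in the Huh7 libraries of replicate 1, 1.04 in HepG2 SR replicate 2 and at most 0.162 elsewhere. TCF7L2, from 4.95 to 14.9 FPKM, was present in every library, and TCF7L1, which was not among the genes tested, reached 3.28 in HepG2 SR replicate 2.

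Further targets did not all follow the 10 genes. Of 14 listed, 2 were higher in each of the 5 alike libraries than in any of the other 3, against 16% of all genes tested. Of the same list 3 were lower throughout, against 13.2%. MYC had 41.0 to 97.3 FPKM in the 5 alike libraries and 26.2 to 28.2 in the other 3. CCND1 overlapped between the sets, from 52.0 to 197 FPKM in the 5 libraries and from 31.4 to 88.4 in the others. TNFRSF19 had 14.2 to 50.3 FPKM in the 5 libraries, 0.821 in HepG2 SR replicate 2, and was listed at 0 in both Huh7 libraries of replicate 1. Of 8 pericentral genes, 3 were higher in each of the 5 libraries and 1 was lower throughout, against 16% and 13.2% of all genes tested. RHBG, an ammonium transporter, had 6.60 to 65.2 FPKM in the 5 libraries and at most 1.07 in the other 3, whereas OAT, an aminotransferase, had 23.8 to 44.3 FPKM in the 5 and 51.6 to 123 in the others. BAMBI, a pseudoreceptor for TGF-beta that beta-catenin can induce, went the other way, with 8.71 to 21.6 FPKM in the 5 libraries and 70.3 to 96.3 in the other 3. So did EPHB3 and CD44, at low levels. EPHB3 had at most 0.160 FPKM in the 5 and 0.446 to 1.71 in the other 3, and CD44 at most 0.183 and 0.578 to 2.38. Of 8 periportal genes, 1 was higher in each of the 5 libraries than in any of the other 3 and 3 were lower throughout. The shares over all genes tested were again 16% and 13.2%. CPS1, the first enzyme of the urea cycle, had 405 and 391 FPKM in the Huh7 libraries of replicate 1 and at most 9.91 elsewhere, with 1.13 in HepG2 SR replicate 2. ASS1, another urea cycle enzyme, had 49.6 to 108 FPKM in the 5 libraries and 362 to 731 in the other 3, whereas GLS2, a glutaminase, had 3.09 to 5.05 FPKM in the 5 and at most 0.0711 in the others.

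**Figure D3:**
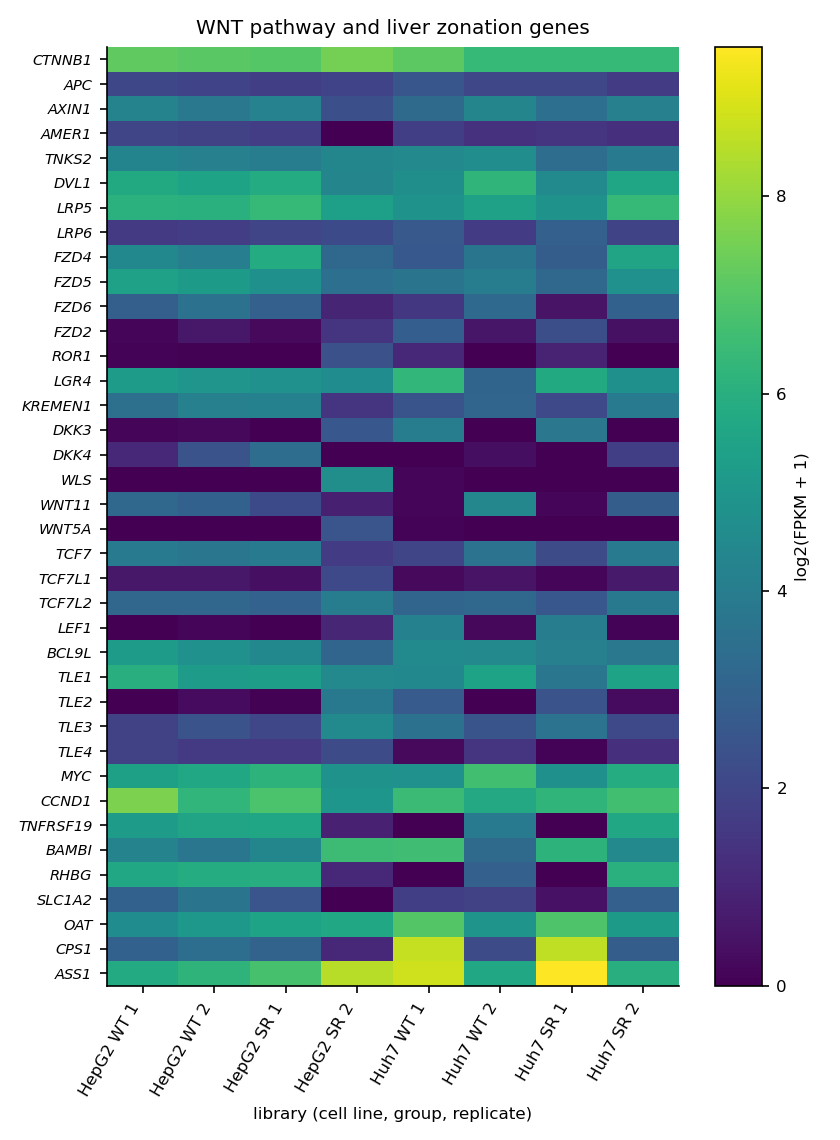
Level of WNT pathway and liver zonation genes in each library as log2(FPKM + 1), from dark for 0 to yellow for the highest value, with libraries in columns by cell line, group and replicate. In Huh7 WT 1 and Huh7 SR 1, TNFRSF19 and RHBG are dark, LEF1 has a middle tone, and CPS1 is bright, at 405 and 391 FPKM. WLS has a middle tone in HepG2 SR 2 and is dark elsewhere.

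The genes most like AXIN2 and LGR5 across libraries were found by the root mean square difference of centred log2(FPKM + 1) over the 8 libraries, among 13770 genes with a mean FPKM of at least 1. For AXIN2 these were SLC2A1 (0.240), KAZN (0.256), ENSG00000228496 (0.265), L1CAM (0.293) and LINC03037 (0.301). For LGR5 they were SERPINA11 (0.350), LINC02413 (0.451) and PPIAP60 (0.463). The 10 target genes were left out of the search. Both AXIN2 and LGR5 were higher in each of the 5 alike libraries than in any of the other 3, as were 16% of all genes tested. Likeness here therefore does not single out genes with a shared regulator, which was not tested.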

How the data were processed

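Gene expression was measured by mRNA sequencing (oligo(dT) enrichment) in 8 libraries, 2 in each of the 4 groups. The authors deposited FPKM values per gene for each library, already scaled for transcript length and library total. The submitters' processing notes name fastp 0.20.0 and GRCh38. The aligner, the quantification tool and the annotation are not given in the sources used here. FPKM hold no read totals, so the depth of each library is unknown, no counting interval can be given, and edgeR, which the study used, was not run. HepG2 WT replicate 2 had 38276 identifiers above 0 FPKM, against 27188 to 29071 in the other libraries, and the reason was not tested. Counting is not stated to use strand. Groups came from the labels alone. Symbols were paired with 62666 of 63241 identifiers, and positions came from GENCODE on GRCh38.

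A linear model of 4 group means, with 4 residual degrees of freedom, was fitted to log2(FPKM + 1) of 15173 genes (limma 3.58.1, R 4.3.3, eBayes with trend), each reaching an FPKM of 1 in 2 libraries or more. Changes of low genes are understated by the added 1. Genes were called at the study's thresholds, an unadjusted p under 0.05 with an estimate of 0.5 or more, or below -0.5, on the log2 scale, and Benjamini-Hochberg adjusted p-values over all genes tested are given beside them. Libraries with r over 0.9 over all genes other than the members were put in 1 set. Named genes were the 10 members, CTNNB1, APC, AXIN1, LRP5, LRP6, LGR4, LEF1, TCF7, TCF7L1, TCF7L2, MYC and CCND1, up to 3 called genes for each pathway list and comparison, and the 5 genes most like AXIN2 and 3 most like LGR5. WLS, WNT5A, WNT11, AMER1, TNFRSF19, RHBG, OAT, BAMBI, EPHB3, CD44, CPS1, ASS1 and GLS2 were picked after their values were seen. The members and lists were chosen with earlier results of these data known. Alternatives were a pseudocount of 0.1, a filter at 0.1 or none, a common sum, quantile normalization, no trend, the replicate number as a block, the set of alike libraries as a term, the 5 alike libraries alone, each line alone, and each library left out. The fits were tested on simulated data.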

Additional observations from a re-analysis of the deposited data

How the results depend on the processing

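Changing the pseudocount to 0.1, the scaling between libraries or the trend in the spread turned no member's direction and left the number of all genes called in each comparison, both directions together, within 1.5 times its value. The common sum moved the higher calls in HepG2 SR versus WT from 133 to 88 and the lower calls in Huh7 SR versus WT from 140 to 211. A filter at 0.1 FPKM gave 504 calls in all in HepG2 SR versus WT and 254 for the difference of the SR effect between the lines, and no filter gave 168 for the latter. With the set of alike libraries as a term, calls in all numbered 1300 in Huh7 SR versus WT, 280 for the difference of the SR effect and 1229 in Huh7 versus HepG2. The 5 alike libraries alone gave 1126 in Huh7 versus HepG2, and Huh7 fitted alone gave 124 for SR versus WT. In Huh7 versus HepG2, 0 members were called without a filter and 3 with the set term or the 5 alike libraries alone. The set term turned the HepG2 SR versus WT estimates of LGR5 (0.11), NKD1 (0.17), TBX3 (0.082), ZNRF3 (0.16), SP5 (0.86) and NOTUM (1.25), those of GLUL (-0.011) and NOTUM (-0.68) for the difference of the SR effect, and that of NOTUM in Huh7 versus HepG2 (0.18, and 0.17 with the 5 alike libraries alone). HepG2 SR replicate 2 is the only library of its set, so the set term takes it out of the HepG2 SR versus WT estimates. Those values are therefore the same as with that library left out, and are not a separate result. Both Huh7 groups hold a library in each of the same sets, so the set term leaves their SR versus WT estimates unchanged. The turned estimates for the difference of the SR effect thus also follow from taking out HepG2 SR replicate 2. With the set term, the estimate of NOTUM in Huh7 versus HepG2 rests on the 5 alike libraries, and is not a separate result either.

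Labels number the libraries 1 and 2 in each group without saying that a number marks a shared culture or day. Differences between the libraries of WT and of SR correlated across genes at r = 0.125 in HepG2 and 0.796 in Huh7. With the replicate number as a block, 328, 234, 91 and 780 genes were called in HepG2 SR versus WT, Huh7 SR versus WT, the difference of the SR effect and Huh7 versus HepG2, and 0 members in any of them, since DKK1 in Huh7 versus HepG2 then had an unadjusted p of 0.0507 (limma, log2 fold change -3.33). The call of CTNNB1 in that comparison was lost too (unadjusted p = 0.0645, limma).

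With each library left out in turn, all calls ranged from 57 to 1749 in HepG2 SR versus WT, 154 to 818 in Huh7 SR versus WT, 24 to 945 for the difference of the SR effect and 236 to 1735 in Huh7 versus HepG2, and calls among the members from 0 to 4, 0 to 1, 0 to 4 and 0 to 3. In HepG2 SR versus WT the log2 fold changes ranged from -4.02 to 0.11 for LGR5, -4.92 to 0.17 for NKD1, -1.95 to 0.082 for TBX3, -2.30 to 0.16 for ZNRF3, -4.13 to 0.86 for SP5 and -5.44 to 1.25 for NOTUM. In Huh7 SR versus WT they ranged from -1.62 to 1.95 for AXIN2, -0.71 to 3.70 for LGR5, -1.67 to 2.95 for NKD1, -0.30 to 1.23 for TBX3, -0.014 to 1.64 for ZNRF3, -1.86 to 4.14 for DKK1, -1.77 to 4.08 for SP5 and -3.16 to 4.29 for NOTUM. For the difference of the SR effect they ranged from -0.38 to 0.56 for GLUL, -0.13 to 5.71 for SP5 and -1.06 to 6.38 for NOTUM, and in Huh7 versus HepG2 from -0.62 to 0.39 for TBX3 and -3.26 to 0.47 for NOTUM. With 2 libraries per group and no read depth, even large differences could go unresolved in the members. Their median SE was 1.62 in SR versus WT, and AXIN2 in HepG2, at -2.42 on the log2 scale, was not called.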
